A study of Homo sapiens with 8 samples.

Results

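The 77 genes described here encode proteins of the human cytosolic ribosome. They were chosen by name alone, as the genes called RPL or RPS with a number and at most one letter A or X after it, together with RPSA, RPLP0, RPLP1 and RPLP2, and they are 77 of the 18388 genes with values. FAU, which encodes a ribosomal protein fused to a ubiquitin-like partner, falls outside this naming rule and is given beside the family. The measurements came from SLAM-Seq, in which cells build 4-thiouridine (4sU) into new RNA, iodoacetamide alkylates the 4sU, and the labelled positions then read as C where the genome has T. All libraries were made from U-2OS Tet-ON cells, a human osteosarcoma cell line that carries a tetracycline-regulated transactivator, and all carry DMSO in their sample names. The comparison set 3 libraries with control siRNA (siControl) against 3 with CGGBP1 siRNA (siCGGBP1, a pool of several siRNAs against this gene). Each was transfected at 50 nM for 72 h and labelled with 75 µM 4sU for the last 60 min. A single siControl library without 4sU (0 µM) and a single one with 200 µM 4sU served as background and as a second dose, with the same knockdown and labelling times. The study's methods count its replicates as biological, while the labels do not say how the cultures were kept apart, and the p-values measure the spread between these samples.

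Ribosomal proteins are made from some of the most abundant and most stable mRNAs of a growing cell, so that little of each pool is replaced within an hour. Most of these mRNAs begin with a C followed by a run of pyrimidines, the 5′ terminal oligopyrimidine (TOP) tract, and their translation is controlled together through mTORC1, with LARP1 bound at the tract. CGGBP1 is a DNA-binding protein that recognises CGG repeats, many of which lie in promoters.

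The starts of the members on which the results turn are given here as 10 bases before and 20 bases from the RefSeq start site (GRCh38.p14, read in the direction of the gene). Capitals mark a C at the start followed by at least 4 bases that are C or T, and a line without capitals has no such tract at this start. The first 6 are the members whose total RNA passed the test and RPS29 is the last.
RPSA, chr3:39406710-39406739, plus strand: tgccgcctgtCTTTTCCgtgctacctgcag
RPS4X, chrX:72277229-72277258, minus strand: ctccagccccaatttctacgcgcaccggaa
RPLP1, chr15:69452808-69452837, plus strand: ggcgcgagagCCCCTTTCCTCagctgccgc
RPL37A, chr2:216498834-216498863, plus strand: gcgtctcttcCTTTCTgggctcggacctag
RPS3, chr11:75399508-75399537, plus strand: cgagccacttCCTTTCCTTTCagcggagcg
RPS6, chr9:19380217-19380246, minus strand: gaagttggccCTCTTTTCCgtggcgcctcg
RPS29, chr14:49598691-49598720, minus strand: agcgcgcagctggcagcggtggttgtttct

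RefSeq windows of 300 bases, from 250 before to 50 after a start, matched 62 of the 77 members by symbol. A tract as defined above stood at a start of 46 of these 62 genes (74.2%), against 5.14% of all 27305 genes with a window. RPS29 and RPS4X were among the 16 without one, and other start sites of these genes were not analysed here. The letters CGGCGG occurred on either strand in the windows of 23 members (37.1%), RPS29, RPS4X and RPS3 among them, against 32.8% of all genes. The longer CGGCGGCGG, every occurrence of which also counts as the shorter motif, was found for 3 members (4.84%) and 7.46% of all genes, and RPS29 was not one of them. A match in a window is a description of its letters and not a binding site.

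Between 10127519 and 14221516 reads were counted in each of the 6 libraries compared, 19011714 in the library without 4sU and 11341561 in that with 200 µM. The siRNA target CGGBP1 itself had 1245, 1089 and 891 normalised reads in siControl and 212, 117 and 362 in siCGGBP1 (log2 fold change -2.22 ± 0.39 SE, adjusted p = 0.0138). The knockdown was called in all omissions of a single library except those of siControl replicate 1 and siCGGBP1 replicate 1 (adjusted p = 0.0632 and 0.0851). Of 8 markers listed for osteosarcoma and mesenchymal cells, VIM, COL1A1 and SPARC were abundant in all libraries, RUNX2 was low, SP7, ALPL and BGLAP had at most 45.1 normalised reads in the 6 libraries, and COL1A2 was not analysed here. COL1A1 and SPARC were higher in siCGGBP1 by log2 fold changes of 1.31 and 1.27 (adjusted p = 0.00353 and 0.00634). PTPRC, CDH1, PECAM1, CD3E and LYZ, markers of other cell types, had at most 8 normalised reads in any of the 6 libraries. EPCAM was the exception, with 53 to 152 normalised reads in the 6 libraries, no read without 4sU and 1 read at 200 µM.

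The family took up a larger share of the reads after CGGBP1 knockdown. It held 12.9%, 13.5% and 15.2% of all reads in the siControl libraries and 17.0%, 17.6% and 15.8% in the siCGGBP1 libraries, so that the groups did not overlap. The means were 13.9 ± 1.22% (SD, n = 3) and 16.8 ± 0.923% (SD, n = 3). Both subunits took part, with 5.93 ± 0.572% against 7.27 ± 0.377% for the small-subunit genes and 7.94 ± 0.650% against 9.54 ± 0.547% for the large-subunit genes, P stalk included (SD, n = 3 each). The siControl libraries at other doses stood lower, at 10.2% without 4sU (exact binomial 95% interval 10.20 to 10.23%) and 11.7% at 200 µM (11.64 to 11.68%). These intervals cover counting error only, since PCR copies of a molecule may count as separate reads. The share thus ranged from 10.2% to 15.2% among the 5 siControl libraries, and the lowest siCGGBP1 library was 0.546 percentage points above the highest of them. A share of reads says nothing of the amount of RNA per cell, which these libraries do not measure.

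**Figure D1:**
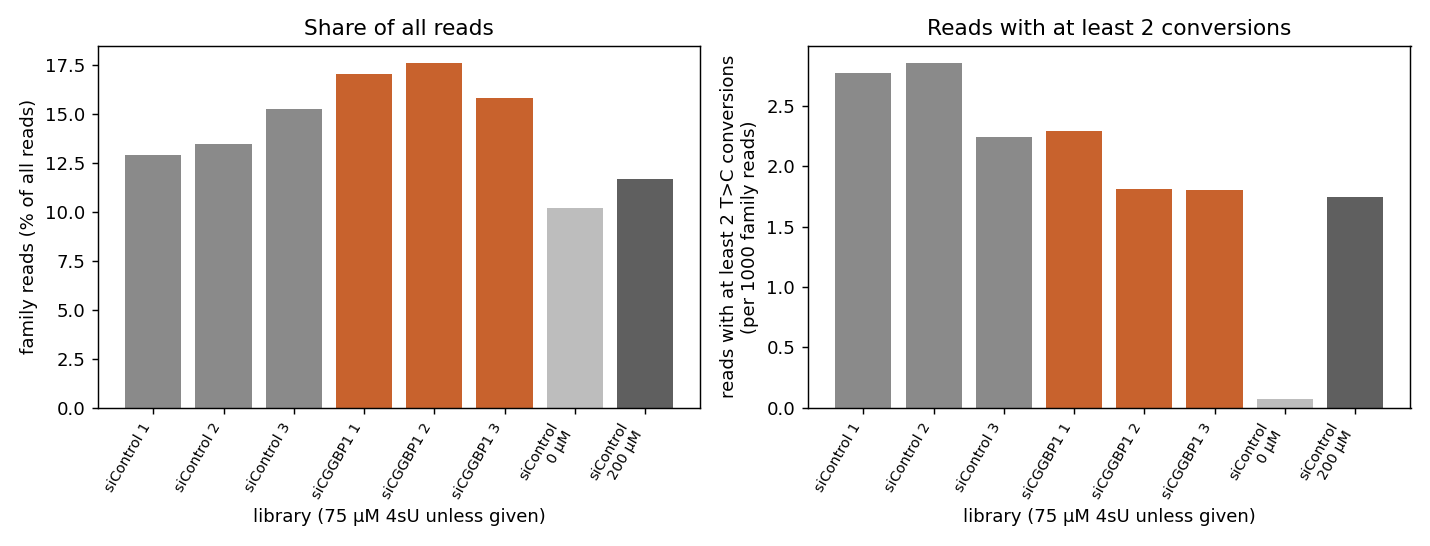
Share of all reads that fell on the 77 ribosomal protein genes (left, in percent) and family reads with at least 2 T-to-C conversions (right, per 1000 family reads), one bar for each of the 8 libraries. The siCGGBP1 bars lie between 15.8% and 17.6% on the left, above every siControl bar, and between 1.80 and 2.3 per 1000 on the right, where the library without 4sU stands at 0.0699.

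Gene by gene, most members were slightly higher in siCGGBP1, few by enough to pass the test, and RPS6 fell. All 77 members passed the filter of at least 100 reads in 3 of the 6 libraries and were tested with edgeR among 10138 genes. Their median log2 fold change was 0.23, against 0.00 over all tested genes, and 65 of 77 (84.4%) lay above 0, against 50.1% of all. A call means an adjusted p under 0.05 over all tested genes. By this rule 5 members rose, RPSA, RPS4X, RPLP1, RPL37A and RPS3, where 0.572% of all tested genes were called higher, and 1 fell, RPS6, where 1.21% were called lower. Members have many reads. Among the 453 tested genes with at least as many reads as the lowest member, the 77 members included, 3.53% were called higher, against 6.49% of the members. The groups did not overlap for 21 members that were higher in siCGGBP1 (27.3%), against 12.1% of all tested genes. Among the 453 abundant genes, which again include the members, the share was 15.5%. The one member that did not overlap in the other direction was RPS6, where 12.1% of all tested genes did so. An unadjusted p under 0.05 was reached by 23 members upward (29.9%) and 1 downward, against 8.11% and 8.32% of all tested genes. With DESeq2's Wald test, 11 members were called higher and 1 lower, against 2.6% and 3.5% of all tested genes.

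The median of the 376 abundant genes outside the family was -0.10, with 11 of them called higher. Changes within the family were small, with 73 of 77 members under 1.5-fold in either direction and none above a log2 fold change of 1 in size. Leaving out single libraries moved the family's median between 0.16 and 0.31, and computing the scale from genes outside the family gave 0.22 with 2 members called higher and RPS6 lower. The spread of the family's median within the groups was 0.14 on the same log2 scale.

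**Figure D2:**
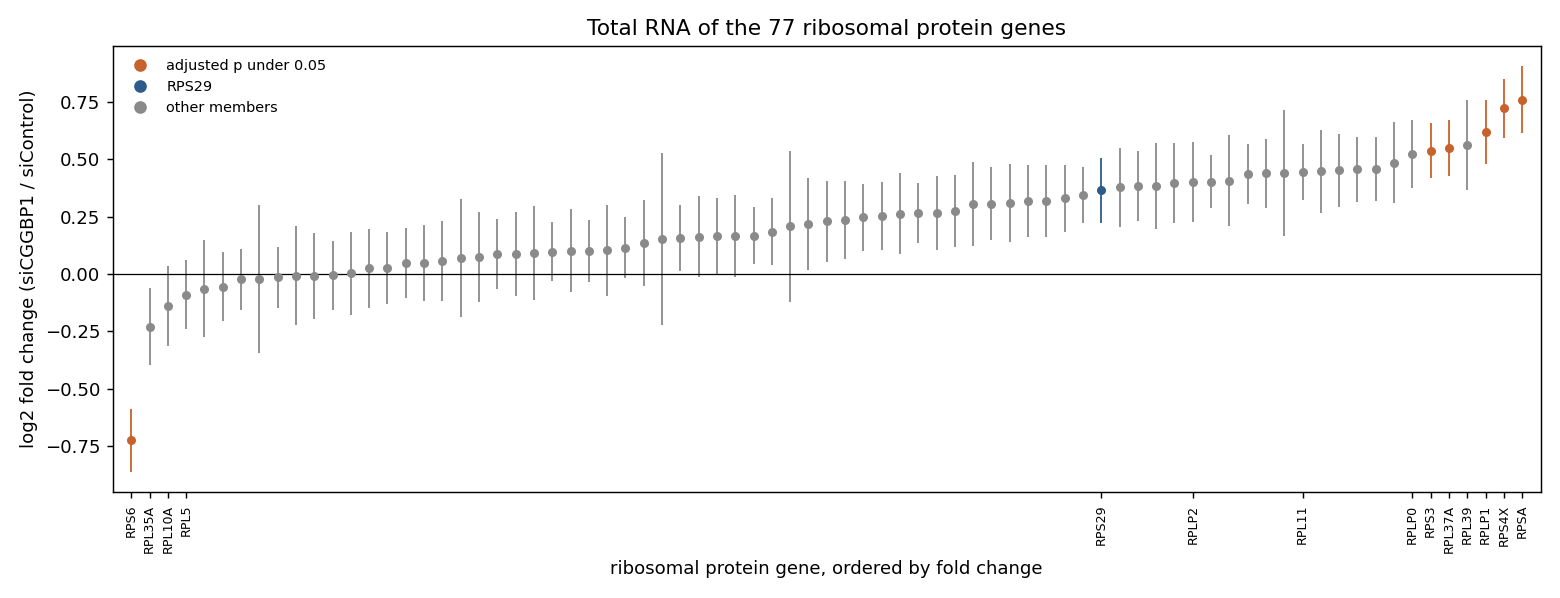
Log2 fold change of total RNA (siCGGBP1 against siControl, n = 3 each) for each of the 77 genes, ordered by size, with standard errors as bars. The 5 genes called higher lie between 0.54 and 0.76, RPS6 stands alone at -0.72, and RPS29 is 24th from the top at 0.36.

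Among the small-subunit proteins, 28 of 31 had a log2 fold change above 0 and 3 were called higher. RPSA, whose protein sits on the outer side of the small subunit and was first described as a laminin receptor, had 10708, 11713 and 12110.2 normalised reads in siControl. Its siCGGBP1 libraries held 21933, 18618 and 17907 reads. The groups were well apart, and the log2 fold change of 0.76 (± 0.15 SE, adjusted p = 0.0213) was the highest of the family. The call was lost without siControl replicate 1 or 2 or without siCGGBP1 replicate 1 or 2 (adjusted p = 0.0833, 0.0734, 0.137 and 0.0644).

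RPS4X, the X-linked copy of a protein that binds ribosomal RNA, had 22702, 23395 and 26073 normalised reads in siControl and 40679, 36338 and 42004 in siCGGBP1. The groups did not overlap, and the log2 fold change was 0.72 (± 0.13 SE, adjusted p = 0.0148), the lowest adjusted p in the family. It was lost without siControl replicate 1 or 2 or siCGGBP1 replicate 1 (adjusted p = 0.0632, 0.0643 and 0.102).

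For RPS3, which lies at the channel where mRNA enters, siControl gave 30520.5, 35639 and 34098 normalised reads and siCGGBP1 gave 47173, 51091 and 47281. The log2 fold change came to 0.54 (± 0.12 SE, adjusted p = 0.0450). This call was close to the threshold and did not survive the loss of any single library, with adjusted p between 0.0637 and 0.152.

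RPS6, the small-subunit protein phosphorylated by the S6 kinases below mTORC1, was the one member called lower. It had 29317, 24037 and 28040.2 normalised reads in siControl and 17291, 15468 and 16496 in siCGGBP1. Every siCGGBP1 library lay below every siControl library, with a mean of 16418 ± 914 against 27131 ± 2755 (SD, n = 3 each) and a log2 fold change of -0.72 (± 0.14 SE, adjusted p = 0.0204). The call was lost without siControl replicate 1 or 3 or siCGGBP1 replicate 1 or 2 (adjusted p = 0.0781, 0.0542, 0.100 and 0.0808), while the log2 fold change stayed between -0.81 and -0.67. Scaled to 1000000 reads per library (RPM), RPS6 stood at 2105 without 4sU and 2039 at 200 µM, above the siCGGBP1 libraries at 1328 to 1484 RPM.

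Of 43 large-subunit proteins outside the P stalk, 34 had a log2 fold change above 0 and 1 was called. This was RPL37A, a small zinc-binding protein, with 38252, 40509.6 and 46408 normalised reads in siControl and 65089, 60027 and 58016 in siCGGBP1. The difference was called at a log2 fold change of 0.55 (± 0.12 SE, adjusted p = 0.0419). The call remained only without siControl replicate 3 (adjusted p = 0.0262), and leaving out siControl replicate 1 or 2 or siCGGBP1 replicate 1, 2 or 3 gave 0.144, 0.129, 0.181, 0.107 and 0.0641. RPL39, a very small protein of the exit tunnel, had a slightly higher log2 fold change of 0.56 but varied more (standard error 0.20, adjusted p = 0.169).

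The lowest large-subunit values did not pass the test. RPL35A, one of the proteins affected in Diamond-Blackfan anaemia, stood at a log2 fold change of -0.23 (± 0.17 SE, adjusted p = 0.548). RPL10A, the protein of the L1 stalk at the exit site for tRNA, had -0.14 (± 0.17 SE, adjusted p = 0.759). Their groups overlapped, with 9432 to 13281 normalised reads in siControl and 8748 to 10858 in siCGGBP1 for RPL10A.

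The P stalk recruits elongation factors to the ribosome and is built from RPLP0, its anchor, and the small acidic proteins RPLP1 and RPLP2. All 3 genes were higher in siCGGBP1 without overlap of the groups, and 1 was called. Of all tested genes, 12.1% were higher without overlap and 0.572% were called higher. RPLP1 had 33471, 43938 and 39631 normalised reads in siControl and 61337, 66572 and 51922 in siCGGBP1 (log2 fold change 0.62 ± 0.14 SE, adjusted p = 0.0455). Its call held only without siCGGBP1 replicate 3 (adjusted p = 0.0367), and the other omissions gave 0.0648 to 0.167. RPLP0 reached a log2 fold change of 0.52 (± 0.15 SE, adjusted p = 0.0975) and RPLP2 one of 0.40 (± 0.17 SE, adjusted p = 0.277). The groups of RPLP2 were barely apart. Its highest siControl library had 11954 normalised reads and its lowest siCGGBP1 library 12095.

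RPL5 and RPL11 bind the 5S ribosomal RNA and, outside the ribosome, bind MDM2. They differed from each other in these libraries. RPL11 had 22208, 21757 and 21439 normalised reads in siControl and 30123, 28778 and 30067 in siCGGBP1, tight groups that did not overlap, yet with an adjusted p of 0.0912 in edgeR (log2 fold change 0.44, standard error 0.12) and of 0.0134 in DESeq2. For RPL5 the value was -0.09 (± 0.15 SE, adjusted p = 0.825), with overlapping groups.

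**Figure D3:**
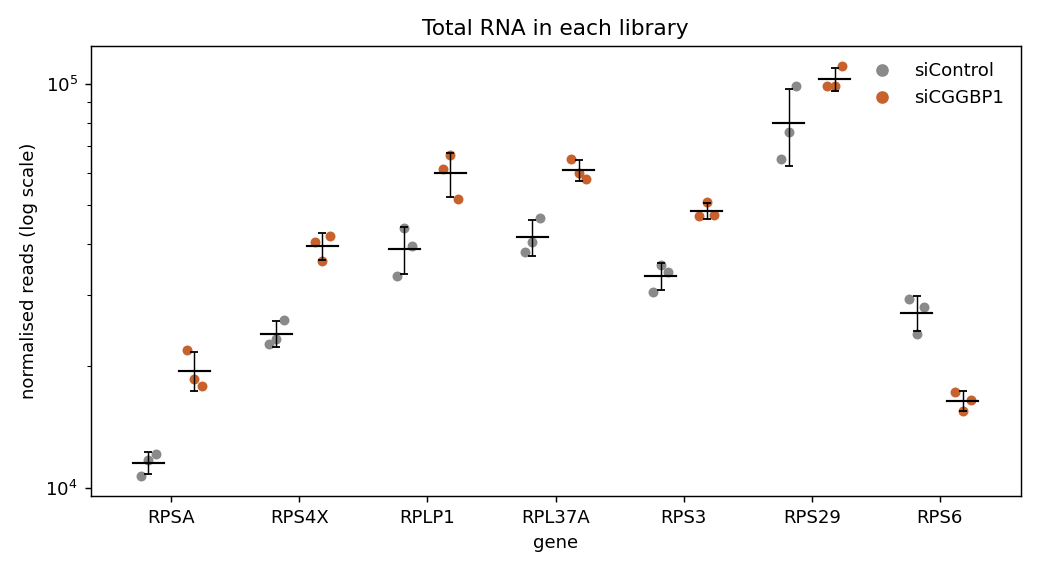
Normalised reads (log scale) of the 6 members called in total RNA and of RPS29 in each of the 3 siControl and 3 siCGGBP1 libraries, with the mean and SD of each group as lines. For every gene shown the points of the groups are apart, downward for RPS6 and upward for the others, with RPS29 separated least (98422 in the highest siControl against 98692 in the lowest siCGGBP1 library).

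RPS29, a small zinc-binding protein of the small subunit's head, had more reads than any other tested gene. It is also one of the genes that the study picked from the newly synthesised RNA of these libraries, so its labelling values below are not independent evidence of its direction. In total RNA it had 64974, 75851 and 98422 normalised reads in siControl and 98932, 98692 and 110319 in siCGGBP1. The groups touched without overlapping, and the log2 fold change of 0.36 (± 0.14 SE, adjusted p = 0.221) did not pass the test. It stood 24th of 77, between RPL34 at 0.38 and RPS24 at 0.34, neither of which was called. Without siControl replicate 3, the highest control, the log2 fold change became 0.54 and the adjusted p 0.0483, and every other omission gave 0.308 to 0.519. RPS24 came next by reads at a mean of 63875 over the 6 libraries, RPL31 followed with 57210 and RPS9 last with 3893, against 91199 for RPS29. Because these are 3′ end libraries, in which a transcript gives reads at its end only, reads were compared between genes without division by length. Total RNA most like that of RPS29 across the 6 libraries was found for RPL31, RPS21 and RPS20 (Pearson's r of log2 normalised reads 0.96, 0.96 and 0.94, a description over 6 libraries that share the group difference).

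Some members varied with the replicate more than with the knockdown. In siCGGBP1 replicate 3, 57 of 77 members were below the mean of replicates 1 and 2 of their group, and members such as RPS9, RPS15, RPL28 and RPL29 were lower by more than 1 on the log2 scale. RPL28, of the large subunit, had 15629, 16402 and 11283 normalised reads in siControl and 19845, 28106 and 10799.8 in siCGGBP1, the lowest value of each group in replicate 3. RPS15, at the small subunit's head, had 7859, 10492 and 6611 against 7434, 13042 and 4115. In siControl replicate 3 only 13 members were below replicates 1 and 2, but across the 77 members the deviation of replicate 3 ran alike in both groups (Pearson's r = 0.67). The same members were low in the library without 4sU, where RPL28 had 221 RPM and RPS15 135, and 12 members were at less than 50% of their siControl mean at 75 µM. The deviation of siCGGBP1 replicate 3 and the log2 ratio of that library to siControl correlated with r = 0.89 over the 77 members. These correlations are descriptions across genes that share their libraries, and the part of this pattern in the results was not tested.

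With replicates 1 and 2 of both groups alone, a comparison chosen after seeing the data, 75 of 77 members lay above 0 with a median log2 fold change of 0.36. Then 14 members were called higher, against 1.73% of all tested genes, and RPS6 lower, against 2.28%. The 14 were the 5 called with all libraries plus RPL39, RPLP0, RPS27, RPS12, RPL31, RPS19, RPL37, RPL34 and RPS29. RPS29 reached a log2 fold change of 0.50 there (adjusted p = 0.0415).

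Genes related to the family were given the same test. The ubiquitin fusion genes RPS27A, a member, and FAU had log2 fold changes of 0.16 and 0.10 without a call. Of 7 tested paralogs of members, 5 lay below 0 (median -0.19) and 1 was called. This was RPL26L1, the close relative of RPL26, with 955, 836 and 1118 normalised reads in siControl and 269, 257 and 261 in siCGGBP1. It fell by 1.88 on the log2 scale (standard error 0.28, adjusted p = 0.00634), while RPL26 itself stood at -0.01 (adjusted p = 0.992). RPS27L, the relative of RPS27, reached 0.56 on the same scale (adjusted p = 0.0966). Paralogs share sequence with members, and reads that fit several genes were counted in fractions, so the split between such pairs is uncertain.

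Among 24 other mRNAs with a TOP tract, which encode mainly translation factors, 16 lay above 0 with a median log2 fold change of 0.09 and 0 calls. The values nearest to a call were 0.55 for PABPC1, the poly(A)-binding protein (adjusted p = 0.0626), and 0.50 for TPT1 (adjusted p = 0.104). Only 2 of 12 host genes of small nucleolar RNAs were tested, SNHG8 with a log2 fold change of 0.34 and EPB41L4A-AS1 with 0.88, neither called. Of 11 chaperones that carry ribosomal proteins to assembly, 8 lay below 0, with a median of -0.44 and 0 calls, BCCIP lowest in adjusted p (-0.71, adjusted p = 0.0974). Of 13 tested regulators of TOP mRNAs, 9 were below 0 with a median of -0.08 and 0 calls, and LARP1 stood at -0.07 (adjusted p = 0.904). By the same test 0.572% of all genes were called higher and 1.21% lower.

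RPS10, RPL17 and RPL36A each share reads with a readthrough gene that also holds the sequence of a neighbour (RPS10-NUDT3, RPL17-C18orf32 and RPL36A-HNRNPH2). Their log2 fold changes were -0.06, -0.01 and 0.10, and those of the readthrough genes 0.10, -0.00 and -0.10, all without a call.

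Little of the family's RNA was labelled after 60 min of 4sU. The new-to-total ratio, the authors' estimate of the labelled fraction of a gene's RNA, had a median over the members of 0.617% of siControl means, against 4.51% over all tested genes, and 65 of 77 members lay under 2%. Abundant genes outside the family had a median of 2.11%. Summed over the members, newly synthesised RNA made up 1.04%, 1.21% and 1.10% of family reads in siControl and 0.795%, 0.632% and 0.941% in siCGGBP1. The siCGGBP1 libraries were all lower by this measure. Over all tested genes the same sums were 4.49%, 5.30% and 4.69% in siControl and 5.04%, 3.86% and 5.69% in siCGGBP1, where the groups overlapped. Taken as a share of all reads, the family's new RNA overlapped between groups as well. That share was 0.134%, 0.163% and 0.167% in siControl and 0.136%, 0.111% and 0.149% in siCGGBP1. Without RPS14, the member with the highest ratio, new RNA made up 0.932%, 1.07% and 0.973% of family reads in siControl. The siCGGBP1 libraries again lay lower, at 0.693%, 0.515% and 0.783%.

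Replicates were uneven in the ratio, which was listed at 0 for 34 of 77 members in replicate 3 of each group, against 0 to 7 members in replicates 1 and 2. Over all tested genes 57.4% and 59.8% were at 0 in these replicates. Members with the lowest ratios were RPS3, RPL22 and RPS24, at 0.0267 ± 0.0462%, 0.06 ± 0.0954% and 0.09 ± 0.0656% in siControl (SD, n = 3 each). The highest were RPS14 at 14.0 ± 2.48%, RPL35A at 4.27 ± 0.811% and RPS9 at 4.01 ± 4.90%. RPS29 stood 45th from the top at 0.520 ± 0.208%.

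T-to-C conversions in the library without 4sU show what the reads hold before any label. Counted as conversions per 100 covered T, the median over members was 0.0275 without 4sU and 0.0717 in siControl at 75 µM. The unlabelled rate was also taken as a share of each member's own siControl rate, and the median of these shares was 42.7%. Over all tested genes the median share was 7.86%, with median rates of 0.0132 and 0.205. The 376 abundant genes outside the family had a median rate of 0.0360 without 4sU, above that of the members, and of 0.131 in siControl. For 29 members the library without 4sU reached at least 50% of the siControl rate, and 47 of 77 had all 6 labelled libraries above it.

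RPS14, whose ratio was the highest of the family, did not rise above that background. Its rates were 0.413, 0.453 and 0.443 in siControl and 0.428, 0.441 and 0.525 in siCGGBP1, all below the 0.542 of the library without 4sU (exact binomial 95% interval 0.517 to 0.567, 1805 conversions). This interval and those of other conversion rates below cover counting error only. Reads with at least 2 conversions stood at 4.09 per 1000 reads without label, within the 1.88 to 7.09 of the 6 labelled libraries. RPS14 encodes a protein of the small subunit's platform, and its ratio was listed at 11.2% to 17.2% in the 6 libraries. RPS19, also known from Diamond-Blackfan anaemia, had a rate of 0.272 without 4sU, above all 6 labelled libraries (0.132 to 0.196). RPL12 and RPL14 were also among the 6 members (7.79%) whose siControl mean did not exceed the unlabelled rate. The same held for 10.2% of all tested genes. The lowest unlabelled rates were those of RPS3A, RPS28 and RPL32, at 0.00631, 0.00716 and 0.00792. Across the 77 members the unlabelled rate and the siControl ratio ran together (Spearman's rho = 0.71, a description across genes that share 4 libraries).

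**Figure D4:**
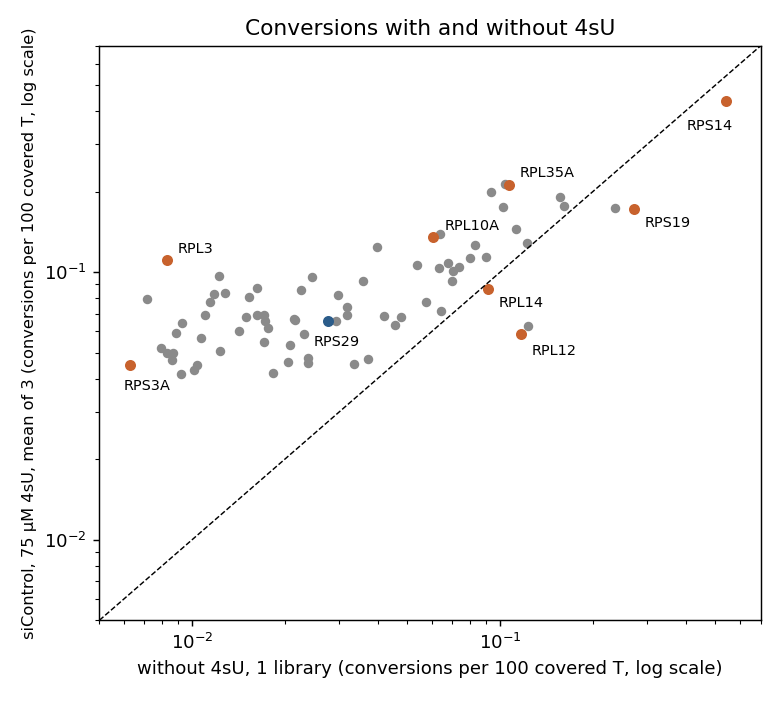
Conversions per 100 covered T of each member in siControl at 75 µM 4sU (mean of 3 libraries) against the single library without 4sU, both on log scales, with equality as a dashed line. RPS14, RPS19, RPL12 and RPL14 are among the points below the line, RPL3 stands far above it with 0.111 against 0.00829, and RPS29 is at 0.0658 against 0.0275.

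A single mismatch cannot make a read with at least 2 conversions. Per 1000 family reads there were 2.77, 2.85 and 2.24 of them in siControl, 2.3, 1.81 and 1.80 in siCGGBP1, and 0.0699 without 4sU. The groups overlapped by a single pair of libraries. Over all tested genes the values were 11.4 to 14.5 in siControl and 13.0 to 14.9 in siCGGBP1, against 0.309 without 4sU.

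After CGGBP1 knockdown the conversion rate of most members was slightly lower, with no call. Its log2 fold change was below 0 for 53 of 77 members, with a median of -0.15 against 0.05 over the 9958 genes tested for it. The median became 0.03 without siControl replicate 1, and -0.29 when each library was scaled to its rate over all tested genes. No member was called by edgeR, where 0.0301% of all genes were, 2 members had an unadjusted p under 0.05 downward, against 2.29% of all, and none upward. The groups did not overlap downward for 9 members (11.7%, RPL10A, RPL22, RPL23, RPL24, RPL29, RPL7, RPS12 and RPS29 among them), against 4.54% of all genes, and upward for 0 members against 4.22%. Of the 376 abundant genes outside the family, 5.85% were lower without overlap. Summed over the family, the rate per 100 covered T overlapped between groups. It was 0.103, 0.0945 and 0.0766 in siControl and 0.0900, 0.0763 and 0.0789 in siCGGBP1.

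RPS29 was one of the 2 members with a low unadjusted p. Its rate per 100 covered T was 0.0814, 0.0664 and 0.0495 in siControl and 0.0440, 0.0435 and 0.0337 in siCGGBP1, on 1174 to 1735 conversions per library, so that all siCGGBP1 libraries were lower. The library without 4sU stood at 0.0275 (exact binomial 95% interval 0.0258 to 0.0294), below all of them. The log2 fold change was -0.70 (edgeR, standard error 0.27, unadjusted p = 0.00928, adjusted p = 0.825), 7th from the lowest of 77, and it lay between -0.87 and -0.52 when single libraries were left out. Above the unlabelled rate, the mean excess in siCGGBP1 was 0.336 times that in siControl. Its ratio was 0.65%, 0.63% and 0.28% in siControl and 0.09%, 0.17% and 0.11% in siCGGBP1. Reads with at least 2 conversions numbered 3.53, 3.44 and 1.44 per 1000 in siControl, 1.02, 1.41 and 0.644 in siCGGBP1 and 0.0364 without 4sU, again lower in every siCGGBP1 library (log2 fold change -1.45, edgeR adjusted p = 0.943).

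The other was RPL10A, whose total RNA had overlapped between groups. Its rate was 0.0995, 0.0984 and 0.208 in siControl and 0.0805, 0.0574 and 0.0112 in siCGGBP1, with replicate 3 the highest of the one group and the lowest of the other. The log2 fold change was -1.45 (edgeR, standard error 0.56, unadjusted p = 0.0103, adjusted p = 0.833), the lowest of the family. The unlabelled rate of 0.0607 lay above 2 of the 3 siCGGBP1 libraries, and the 200 µM library gave 0.0098 from 27 conversions. As new RNA, its normalised reads were 123, 127 and 715 in siControl against 16.6, 26.1 and 0 in siCGGBP1 (log2 fold change -4.52, edgeR unadjusted p = 0.000181, adjusted p = 0.229). This was the lowest adjusted p of the family in new RNA.

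The 4 lowest log2 fold changes of the conversion rate also included -1.09 for RPL18 and -1.04 for RPL29, and the highest were 0.61 for RPLP2, 0.46 for RPS7, 0.30 for RPL39 and 0.28 for RPL21, all with adjusted p values of 1. RPL23, which like RPL5 and RPL11 can bind MDM2, had 0.133, 0.113 and 0.128 in siControl and 0.109, 0.0865 and 0.0586 in siCGGBP1, lower in every library (adjusted p = 1). RPL31, whose total RNA was most like that of RPS29, differed from it here, with 0.0728, 0.0678 and 0.0569 against 0.0658, 0.0734 and 0.0731.

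**Figure D5:**
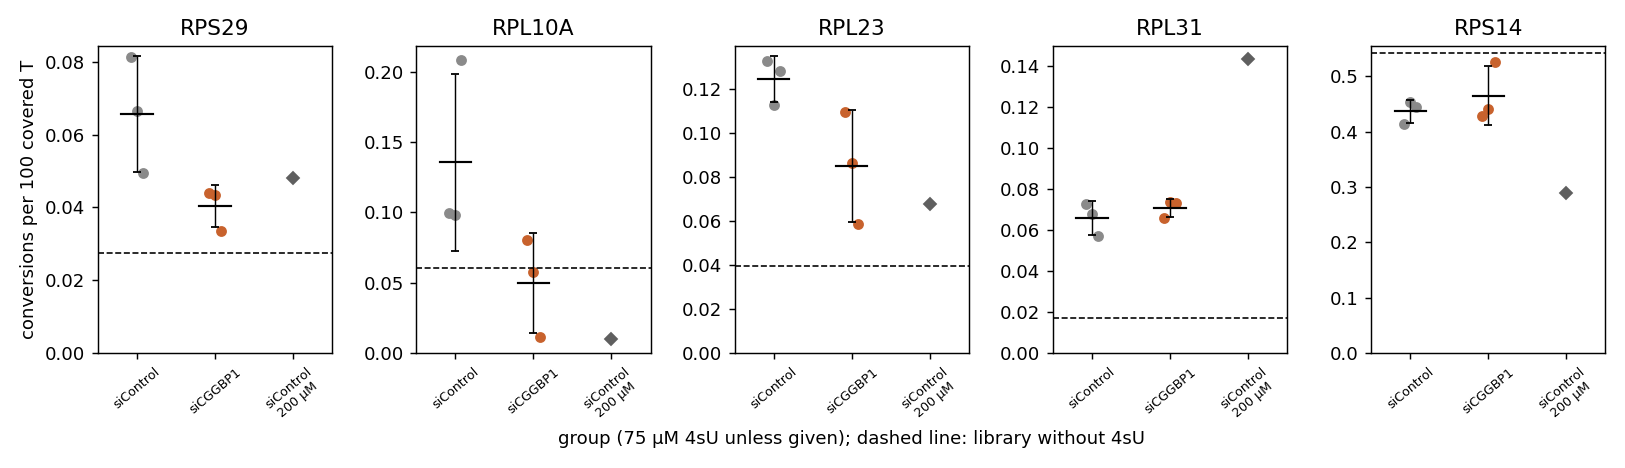
Conversions per 100 covered T of RPS29, RPL10A, RPL23, RPL31 and RPS14 in the siControl and siCGGBP1 libraries (points, with mean and SD), in the siControl library with 200 µM 4sU (diamond) and without 4sU (dashed line). In RPS29 and RPL23 all siCGGBP1 points lie below the siControl points and above the dashed line, in RPL10A 2 of them lie below that line, in RPL31 the groups overlap, and in RPS14 every point is below the line.

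Newly synthesised RNA, taken as reads times ratio, spread more widely. The median log2 fold change was -0.38 over the members and -0.03 over all tested genes, and 48 of 77 lay below 0. No member was called, against 0.0493% of all genes, by DESeq2 0 as well. An unadjusted p under 0.05 was reached by 6 members, RPL10A, RPL23, RPL29, RPL35A and RPS29 among them, all lower (7.79% of members against 1.9% of all genes). For RPS29, siControl gave 422, 478 and 276 normalised new reads and siCGGBP1 gave 89, 168 and 121 (log2 fold change -1.64 ± 0.83 SE, adjusted p = 0.994). The log2 fold change of -7.90 for RPL29 rests on ratios listed at 0 in all 3 siCGGBP1 libraries and is no estimate of size. For the ratio itself, limma called 0 members, against 0% of all genes, and 3 had an unadjusted p under 0.05 (RPL10A, RPL11 and RPS29, all lower, against 1.87% of all genes). The biological coefficient of variation that edgeR fitted was 0.399 for total RNA, 1.11 for the conversion rate and 1.78 for new RNA.

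Of the 65 members above 0 in total RNA, 46 were below 0 in conversion rate, much like the 53 of all 77 members. RPSA, RPS4X, RPLP1, RPL37A and RPS3, higher in total RNA, had log2 fold changes of the conversion rate of 0.17, -0.23, -0.64, -0.16 and -0.24, and RPS6, lower in total RNA, had one of -0.22. Across members the fold changes of total RNA and of the conversion rate were unrelated in rank (Spearman's rho = 0.08, a description across 77 genes that share their libraries).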

How the data were processed

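RNA of 8 libraries of U-2OS Tet-ON cells was alkylated with iodoacetamide and made into QuantSeq 3′ end libraries. Per the labels and the study's methods, the authors removed ribosomal reads with Bowtie2 2.3.0, mapped the rest with STAR 2.5.3a and ran GRAND-SLAM. The deposited table holds, for 18388 genes and each library, expected counts of reads (fractional, since reads that fit several genes were divided by the authors), conversions, covered T and reads with at least 2 conversions on the same scale, and the new-to-total ratio as a fraction with its interval. The 30 columns of prior parameters and double hits per library were not used. Depth was 10127519 to 19011714 reads. Spike-in RNA was added by the authors but not used here, so all levels are relative to the library.

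Of all genes, 10138 reached the filter, a minimum of 100 reads in 3 or more of the 6 libraries at 75 µM 4sU. Expected counts were rounded, scaled by TMM and tested with the quasi-likelihood test of edgeR 4.0.16 (R 4.3.3), siCGGBP1 against siControl. Normalised reads are reads divided by the TMM-corrected library size relative to its mean. New RNA (reads times ratio, on the scale of total reads) and the conversion rate (conversions with the logarithm of covered T as offset, 9958 genes) were fitted in the same way, and the arcsine of the square root of the ratio with limma 3.58.1. In 184 values of tested genes, none of them of a family member, a missing ratio was set to 0. A call is an adjusted p under 0.05 (Benjamini-Hochberg over all tested genes). DESeq2 1.42.0, other filters, scalings and pseudocounts, a replicate block and the omission of each library were alternatives. The procedures were tested on simulated data.

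Named genes are RPS29, RPSA, RPLP0, RPLP1, RPLP2, RPL5 and RPL11, every member called, the 4 highest and 4 lowest in total RNA and in conversion rate, the 3 highest and 3 lowest in siControl ratio and in the rate without 4sU, FAU, called genes of the lists of relatives, CGGBP1, and the 3 members most correlated with RPS29. Some genes that this rule selects are not reported here. RPL28, RPS15, RPL3, RPL23 and other genes outside this rule were chosen after their values were seen. The members and the lists of related genes were chosen with earlier results of these data known.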

Additional observations from a re-analysis of the deposited data

Results flagged for a closer look

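The siControl library with 200 µM 4sU entered no comparison. Over the 77 ribosomal protein genes it held 0.0891 conversions per 100 covered T (exact binomial 95% interval 0.0882 to 0.0901), above the 0.0518 of the library without 4sU (0.0512 to 0.0524), and it was singled out for this signal outside the comparison. Both intervals cover counting error only and not the spread between libraries. The rate at 200 µM lay within the 0.0766 to 0.103 of the siControl libraries at 75 µM, and RPS29 gave 0.0480 in this library, against 0.0495 to 0.0814 at 75 µM. Over all tested genes the rate was 0.217 in it, also within the 0.183 to 0.242 of siControl at 75 µM. By the ratio, newly synthesised RNA made up 1.59% of family reads at 200 µM, above the 1.04% to 1.21% of siControl at 75 µM. Over all tested genes this sum was higher as well, at 8.11% against 4.49% to 5.30%. The median ratio of the members was lower, at 0.01% with 38 of 77 listed at 0, against medians of 0.28% to 0.71% in siControl at 75 µM. Groups of 3 libraries were not tested for outlying samples.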

How the results depend on the processing

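In total RNA, the number of members called higher, 5 with all libraries, was 11 with DESeq2's Wald test, 4 with its size factors in edgeR, 2 with the scale taken from genes outside the family, 2 without a filter, 2 with a mean of at least 10 reads as the filter, and 14 with replicates 1 and 2 of both groups alone (chosen after seeing the data). With an absolute log2 fold change above 1 required as well, 0 were called higher and 0 lower. Leaving out single libraries gave 0 to 5 higher and 0 to 1 lower. RPS6 was called lower in every alternative with all 6 libraries except the stricter threshold, and with replicates 1 and 2 alone. Some of these settings had fewer samples or more genes tested, and the cause of the shifts was not tested. The median of total RNA stayed between 0.16 and 0.36. That of the conversion rate lay between -0.42 and 0.03, above 0 only without siControl replicate 1. This second range includes a fit of reads with at least 2 conversions over reads, which is a different measure. In new RNA, conversion rate and ratio, 0 members were called under every alternative run.

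Equal replicate numbers of the groups are not said to mark a shared culture. Correlations of the deviations of same-numbered libraries were 0.105, 0.172 and 0.0837, not all over 0.1, so the numbers were not taken as pairs, although every library correlated best with its own number. With the replicate block, 5 members were called higher and 1 lower (median 0.22), and medians were -0.56 for new RNA, -0.13 for the conversion rate and -0.0142 for the difference of transformed ratios, with 0 calls in each.

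Few reads per member carry new RNA, and 34 of 77 ratios were listed at 0 in replicate 3 of each group, which limits what labelling can show.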
